A study of Mus musculus with 3 samples.

Results

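The interleukin-1 family and inflammasome genes described here were 10 genes taken by symbol from the 23183 genes with a value in every library. They were the agonist cytokine genes Il1a, Il1b and Il18, the antagonist and decoy receptor genes Il1rn and Il1r2, the signalling receptor genes Il1r1 and Il1rap, and the inflammasome genes Nlrp3, Pycard and Casp1. Their levels came from RNA sequencing of whole lung homogenates of female BALB/c mice, with 1 library in each of 3 groups. The OVA+PM10 library came from mice sensitised to the egg-white allergen ovalbumin (OVA) with aluminium hydroxide in the peritoneum, first on day 0 or 1 (the labels differ) and again on day 14, challenged with it through the nose on days 21, 22 and 23, and also given PM10. The PM10 library came from mice given PM10, a certified fine-dust reference material suspended in saline, through the nose 4 times over 2 weeks. The control library came from mice whose label names no agent and no vehicle. Lungs were taken 2 days after the last challenge. The labels give the age as 10 weeks in one field and as 5 to 6 weeks in another, list particle doses of 100 and 200 µg without naming the dose sequenced, and assign 5 mice to each group without saying whether a library pooled animals. With 1 library per group the differences below had no replicate check, no test was possible, and each ratio sets one library against another rather than one treatment against another. No library from mice given OVA without particles was analysed here, so allergen and particles cannot be told apart in the OVA+PM10 values.

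Interleukin-1α and interleukin-1β are cytokines that start local inflammation by binding the receptor chain encoded by Il1r1, which then recruits the accessory chain encoded by Il1rap and activates NF-κB. A pair of proteins restrain this signal: the antagonist encoded by Il1rn occupies the receptor without activating it, and the decoy receptor encoded by Il1r2 captures ligand without signalling. Interleukin-1β and interleukin-18 are made as inactive precursors, which caspase-1 cleaves after a sensor such as NLRP3 and the adaptor ASC (the product of Pycard) have assembled into an inflammasome. In lung, particles taken up by macrophages are a known trigger of that assembly. Transcript levels show the amount of RNA for each component and carry no information on cleavage or release of the proteins.

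Il1b, Il1a and Il1rn lie on chromosome 2, and the bases just before their transcription start sites are shown because these genes include the cytokine and the antagonist with the highest ratios in the lungs given particles. Each sequence is the 250 bases before a RefSeq start site (GRCm38.p6, the assembly that mm10 names), written 5′ to 3′ on the strand of the gene, with capitals marking matches to the TATA box (TATAAA), the AP-1 motif (TGANTCA) and an NF-κB motif (GGG and TTCC with any 3 bases between them) on either strand. Il1rn has separate start sites, of which an upstream one is known for the intracellular form of the antagonist and a downstream one for the secreted form, and the deposited value does not separate them.
Il1b, chr2:129371140-129371389, minus strand: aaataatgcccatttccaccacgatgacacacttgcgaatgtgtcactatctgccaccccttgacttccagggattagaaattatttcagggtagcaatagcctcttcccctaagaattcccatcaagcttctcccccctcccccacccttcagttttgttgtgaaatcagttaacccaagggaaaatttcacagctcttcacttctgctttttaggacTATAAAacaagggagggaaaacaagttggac
Il1a, chr2:129309973-129310222, minus strand: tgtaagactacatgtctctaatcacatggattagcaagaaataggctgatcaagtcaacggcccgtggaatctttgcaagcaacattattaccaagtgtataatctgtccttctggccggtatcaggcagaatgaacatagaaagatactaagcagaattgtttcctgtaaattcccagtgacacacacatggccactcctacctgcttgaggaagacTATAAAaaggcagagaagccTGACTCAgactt
Il1rn, upstream start, chr2:24336610-24336859, plus strand: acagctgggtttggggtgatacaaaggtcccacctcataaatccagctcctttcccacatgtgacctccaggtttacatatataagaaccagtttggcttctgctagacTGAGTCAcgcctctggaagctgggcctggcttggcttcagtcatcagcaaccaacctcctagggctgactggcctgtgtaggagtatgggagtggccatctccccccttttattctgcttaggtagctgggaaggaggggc
Il1rn, downstream start, chr2:24345121-24345370, plus strand: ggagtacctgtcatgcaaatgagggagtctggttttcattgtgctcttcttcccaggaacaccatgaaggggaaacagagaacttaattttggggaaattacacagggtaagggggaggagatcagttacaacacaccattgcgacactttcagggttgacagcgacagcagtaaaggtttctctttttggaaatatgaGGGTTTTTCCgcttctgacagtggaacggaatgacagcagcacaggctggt
Il1b and Il1a each had a TATA box, 31 to 26 and 32 to 27 bases before their start sites, and this motif occurred in 12.3% of the 32536 distinct windows of the same length in the table. An AP-1 match lay 12 to 6 bases before the start of Il1a and 141 to 135 bases before the upstream start of Il1rn, against 6.7% of all windows. The NF-κB letters occurred 51 to 42 bases before the downstream start of Il1rn shown here, against 4.6% of all windows, and were not in the windows of Il1b and Il1a. Another RefSeq start of Il1rn lies close to it, with a window from 24345041 to 24345290. That window, not printed here, had no match to any of these motifs. None of these matches overlapped another. All 10 genes had at least 1 window, 14 in all, and the NF-κB letters were found for 2 of the genes, the AP-1 letters for 2 and the TATAAA letters for 3. Beside Il1a and Il1b, the TATAAA letters were in the window of Il18, on the opposite strand and 175 to 170 bases before its start site. Such matches describe the letters in these windows and do not show binding.

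The 10 genes did not move as one group: 4 of them differed at least 2-fold between some pair of libraries by the rule used here, and the other 6 did not pass it in any pair. A gene was counted as 2-fold higher or lower when log2(FPKM + 1) differed by at least 1 and the higher library had at least 1 FPKM (a level scaled for transcript length and for sequencing depth). In the PM10 library against the control library, Il1b and Il1rn were at least 2-fold higher and Il1r2 was lower. These were 2 and 1 of 10 genes, while 13.6% of the 13693 genes tested were higher and 13.9% lower. In the OVA+PM10 library against the control library, Il1b was higher, and Il18 and Il1r2 were lower. Here 9.95% of the 13877 genes tested were higher and 8.68% lower. In the OVA+PM10 library against the PM10 library, Il18 and Il1rn were lower and none of the 9 genes that could be tested was higher, beside 11.8% of 13556 genes higher and 9.0% (1220 genes) lower. With so few genes these counts show nothing particular to the group, and each call rests on a gene's own values.

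The median log2 ratio of the 10 genes was 0.08 for PM10 over control, beside 0.019 for all genes tested. It was -0.04 for OVA+PM10 over control, beside -0.0017, and -0.20 for OVA+PM10 over PM10, beside -0.03. Both comparisons with the control use the same control library, so a high or low value in it enters both. Short transcripts had higher ratios in the exposed libraries: the tenth of genes with the shortest transcripts had a median log2 ratio of 1.16 for PM10 over control and 0.66 for OVA+PM10 over control, and the tenth with the longest had -0.79 and -0.36. Values with this trend over transcript length removed are therefore plotted for the 10 genes and given beside some of the ratios. Other ratios and counts, among them those of the marker lists, are as deposited and still hold the trend.

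**Figure D1:**
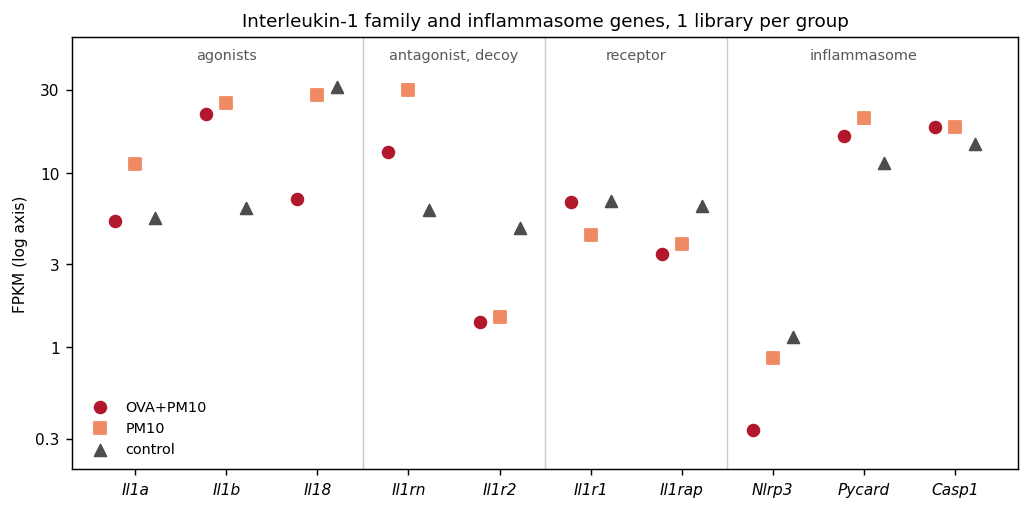
FPKM (log axis) of the 10 genes in the OVA+PM10 (circles), PM10 (squares) and control (triangles) libraries, 1 point per library, grouped by role. Il1b lay at 21.828 and 25.212 FPKM in the exposed libraries and at 6.273 FPKM in the control library, while Il18 lay at 7.046 FPKM in the OVA+PM10 library and near 30 FPKM in the others.

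Il1b, which encodes the caspase-1-dependent cytokine interleukin-1β, had 21.828 FPKM in OVA+PM10 lungs, 25.212 FPKM in PM10 lungs and 6.273 FPKM in control lungs. Both exposed libraries were thus high and close to each other. The FPKM of Il1b was 3.48 times the control level in OVA+PM10 lungs and 4.02 times that level in PM10 lungs (log2 ratios of FPKM + 1 of 1.65 and 1.85), and these ratios exceeded those of 97.0% of the genes tested in each comparison. With the length trend removed they were 1.24 and 1.09. When libraries were scaled to an equal sum of FPKM, which lowers the median of all genes to -0.57 for OVA+PM10 and -1.03 for PM10 over control, the ratios of Il1b were 1.08 and 0.71, so that PM10 fell short of 2-fold. In whole lung, a difference in the number of cells of a type and a difference in RNA per cell cannot be told apart. Il1b was the gene with the highest level among the 10 in the OVA+PM10 library and ranked sixth in the control library.

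Il1a, which encodes interleukin-1α, a cytokine active without cleavage by caspase-1, did not follow Il1b. It had 5.291 FPKM in OVA+PM10 lungs, 11.234 FPKM in PM10 lungs and 5.524 FPKM in control lungs. Only the PM10 library stood higher, at 2.03 times the control FPKM, but its log2 ratio of FPKM + 1 was 0.91, or 0.52 without the length trend, and fell short of the 2-fold rule. On the equal-sum scale described above the direction turned, to -0.20. The OVA+PM10 library differed from the PM10 library by a log2 ratio of -0.96 for Il1a, or -1.05 with 0.25 FPKM added.

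Il18, which encodes the interferon-γ-inducing cytokine interleukin-18 and is known to be expressed constitutively by epithelium and macrophages, had 7.046 FPKM in OVA+PM10 lungs, 28.132 FPKM in PM10 lungs and 30.909 FPKM in control lungs. The OVA+PM10 library alone was low. Its Il18 level was 4.39-fold lower than in the control library and 3.99-fold lower than in the PM10 library (log2 ratios of -1.99 and -1.86), and 2.0% and 1.1% of the genes tested had a lower ratio. Removing the length trend gave -2.62 and -1.25, or -2.29 and -1.57 with the median rather than the longest coding transcript as a gene's length. As deposited, Il18 in the PM10 library was close to the control library (log2 ratio -0.13), but the longest coding transcript of Il18 has only 885 bases, and the ratio was -1.32 with the length trend removed and -0.66 with the median transcript length, so the PM10 value of Il18 depends on how length is treated.

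Cell type markers also differed in the OVA+PM10 library, where Il18 was low. Markers are counted as higher or lower by the 2-fold rule in this paragraph, so a marker not counted may still differ by less. Of all genes tested, 9.95% were higher and 8.68% lower by that rule for OVA+PM10 over control, and 11.8% and 9.0% for OVA+PM10 over PM10. The 6 markers of alveolar type 1 cells (flat cells of gas exchange) summed to 1093 FPKM in OVA+PM10 lungs, 3163 FPKM in PM10 lungs and 2355 FPKM in control lungs, with all 6 lower for OVA+PM10 over PM10 and 4 of 6 lower for OVA+PM10 over control. The 8 endothelial markers summed to 647, 1753 and 1245 FPKM in the same order, with 4 of 8 lower in the OVA+PM10 library in either comparison. Other epithelial lists did not go 1 way. Of 7 alveolar type 2 markers, none was higher and 1 lower for OVA+PM10 over control, and 1 higher and 2 lower for OVA+PM10 over PM10. Of 6 airway markers, 2 were higher and none lower for OVA+PM10 over control, and 1 higher and 1 lower for OVA+PM10 over PM10. The 11 markers of alveolar macrophages split, with 3 higher and 2 lower for OVA+PM10 over control, and 1 higher and 5 lower for OVA+PM10 over PM10. Among those lower in both, the scavenger receptor gene Marco had 1.157, 13.115 and 7.360 FPKM, and the fatty acid binding protein gene Fabp1 1.281, 32.057 and 20.482 FPKM. Chil3, a chitinase-like gene of activated macrophages, was higher in both, at 2105.550, 640.692 and 93.403 FPKM, and makes up most of the list's sum of 2886 FPKM in OVA+PM10 lungs, against 1513 FPKM in PM10 lungs and 543 FPKM in control lungs. Whether these shifts have a part in the Il18 level was not tested.

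Il1rn, which encodes the interleukin-1 receptor antagonist, had 13.115 FPKM in OVA+PM10 lungs, 29.705 FPKM in PM10 lungs and 6.126 FPKM in control lungs. The 3 libraries were spread apart, with PM10 the highest and the control the lowest. The log2 ratio was 2.11 for PM10 over control, the largest of the 10 genes in that comparison and above 98.1% of all genes tested, and 1.97 without the length trend. For OVA+PM10 over control it was 0.99, just under the threshold although the FPKM was 2.14-fold that of the control. For OVA+PM10 over PM10 it was -1.12, a 2.26-fold lower FPKM, but this was within 2-fold with 5 FPKM added (-0.94) and when the median transcript length was used for the trend (-0.91). On the equal-sum scale the ratios of Il1rn were 0.97 for PM10 over control and -0.55 for OVA+PM10 over PM10.

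Il1r2, which encodes the decoy receptor, had 1.402 FPKM in OVA+PM10 lungs, 1.496 FPKM in PM10 lungs and 4.843 FPKM in control lungs. Both exposed libraries were low and the control library high, so Il1r2 differed from the control in the direction opposite to Il1b. Against control its FPKM was 3.45-fold lower with OVA+PM10 and 3.24-fold lower with PM10 alone (log2 ratios -1.28 and -1.23), and -1.68 and -1.91 without the length trend. With 5 FPKM added, above the level of Il1r2 itself, they were -0.62 and -0.60, within 2-fold. The levels of Il1r2 correspond to only about 31, 28 and 144 reads in the OVA+PM10, PM10 and control libraries, an approximation from transcript length.

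Receptor genes that carry the signal differed less. Il1r1, the ligand-binding signalling chain, had 6.813 FPKM in OVA+PM10 lungs, 4.414 FPKM in PM10 lungs and 6.931 FPKM in control lungs, and its log2 ratio to the control was -0.02 for OVA+PM10 and -0.55 for PM10. Il1rap, the accessory chain that is shared with the receptors for interleukin-33 and interleukin-36, had 3.415, 3.903 and 6.447 FPKM in the same order. Il1rap was lower in both exposed libraries, by log2 ratios of -0.75 and -0.60, within 2-fold. On the equal-sum scale the ratio of Il1rap was -1.34 for OVA+PM10 over control, past 2-fold, where the median of all genes was -0.57. For PM10 over control, where that median was -1.03, the ratios were -1.61 for Il1r1, -1.64 for Il1rap and -1.34 for Il18. Il1r1 is a gene of stromal and endothelial cells among others, and fibroblast markers went both ways: of 8, 2 were at least 2-fold higher and 4 lower for OVA+PM10 over control, and 1 higher and 4 lower for PM10 over control. Of 8 endothelial markers none was higher and 4 were lower for OVA+PM10 over control, and 3 were higher and 2 lower for PM10 over control. By the same rule, 9.95% of all genes tested were higher and 8.68% lower for OVA+PM10 over control, and 13.6% and 13.9% for PM10 over control. The antisense gene Gm20319, which overlaps Il1rap on the opposite strand, had 1.965, 0.403 and 3.275 FPKM. The use of strand in counting was not stated by the labels, and reads of Il1rap and Gm20319 may not have been separated.

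Casp1 and Pycard stayed within 2-fold in every comparison, and Nlrp3 did not pass the 2-fold rule in the 2 comparisons with the control. Casp1, which encodes the protease caspase-1, had 18.417 FPKM in OVA+PM10 lungs, 18.229 FPKM in PM10 lungs and 14.687 FPKM in control lungs. All 3 values of Casp1 were close, with log2 ratios of 0.31 and 0.29 over the control, which turned to -0.07 and -0.30 without the length trend. Pycard, which encodes the adaptor ASC, had 16.185, 20.519 and 11.418 FPKM in the same order, with log2 ratios of 0.47 and 0.79 over the control, which turned to -0.14 and -0.37 on the equal-sum scale. Nlrp3, the sensor, was the lowest of the 10 genes in every library, at 0.338 FPKM in OVA+PM10 lungs, 0.873 FPKM in PM10 lungs and 1.151 FPKM in control lungs. That is about 21, 47 and 97 reads, and the OVA+PM10 level of Nlrp3 was 3.41-fold lower than the control in FPKM. Its log2 ratio of FPKM + 1 was only -0.68, because the added 1 FPKM exceeds most of its values, but it was -1.25 with 0.25 FPKM added and -1.09 on the equal-sum scale, both past 2-fold. The OVA+PM10 and PM10 levels of Nlrp3, 2.58-fold apart in FPKM, were both under 1 FPKM and were not tested against each other.

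**Figure D2:**
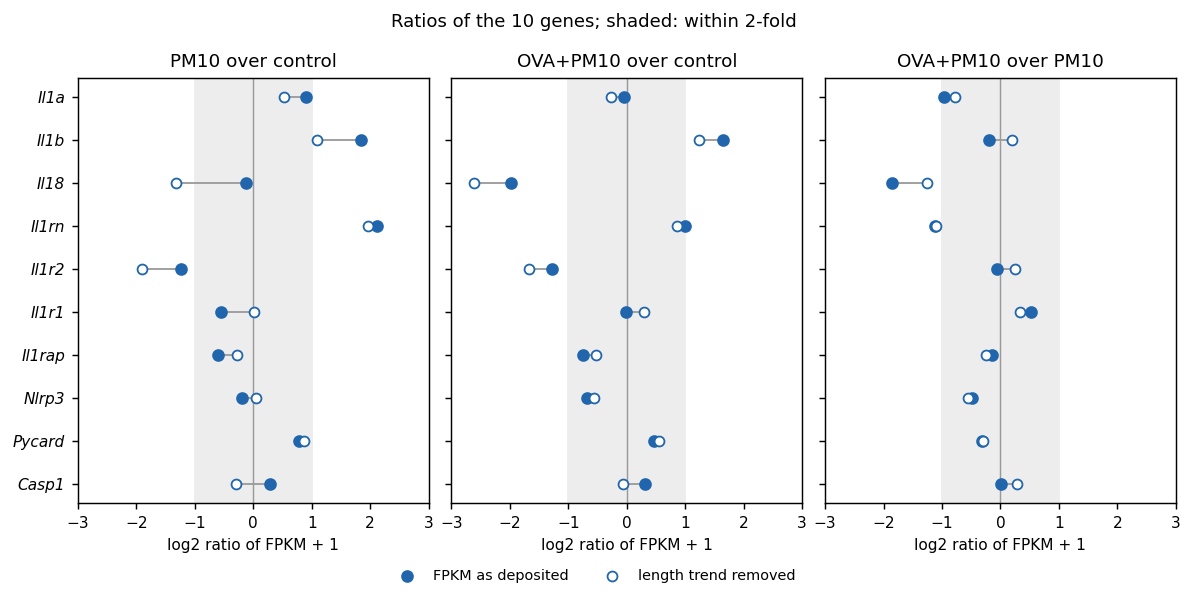
Log2 ratios of FPKM + 1 (x axis) of the 10 genes for PM10 over control, OVA+PM10 over control and OVA+PM10 over PM10, as deposited (filled) and with the trend over transcript length removed (open); the shaded band is within 2-fold. Il1b lay right of the band in both comparisons with the control, Il1r2 left of it, and Il18 left of it in both comparisons of the OVA+PM10 library.

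Ratios between 2 genes of the same library do not depend on how libraries are scaled to each other, and they were compared per transcript length. The antagonist gene Il1rn stood at 0.601 times the FPKM of Il1b in the OVA+PM10 library, 1.18 times in the PM10 library and 0.977 times in the control library. The OVA+PM10 library thus had the least antagonist RNA for its Il1b RNA, and the other libraries had about equal amounts of both as deposited. With the length trend removed the log2 of this ratio was -0.77 in OVA+PM10 lungs, 0.55 in PM10 lungs and -0.33 in control lungs, against -0.73, 0.24 and -0.03 as deposited. Relative to Il1a the antagonist stood at 2.48, 2.64 and 1.11 times in the same order, higher in both exposed libraries than in the control. The decoy receptor gene Il1r2 stood at 0.206 times the FPKM of Il1r1 in the OVA+PM10 library, 0.339 times in the PM10 library and 0.699 times in the control library. Il1r2 was the lower of the pair everywhere as deposited, and lowest for its receptor in the OVA+PM10 library. With the length trend removed the log2 of this ratio was -2.35 in the OVA+PM10 library, against -2.28 as deposited. It was -2.16 in the PM10 library, against -1.56, and 0.10 in the control library, against -0.52. Without the trend the exposed libraries were thus close to each other.

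Il18 and Il1b changed order between libraries. The FPKM of Il18 was 0.323 times that of Il1b in the OVA+PM10 library, 1.12 times in the PM10 library and 4.93 times in the control library. Set against Il18bp, which encodes the soluble protein that neutralises interleukin-18, Il18 stood at 0.703, 3.21 and 4.14 times in the same order. Il18bp itself had 10.024, 8.767 and 7.470 FPKM, so as deposited the OVA+PM10 library was the single one in which the binding protein gene had the higher FPKM of the pair. These ratios of Il18 are as deposited and were not computed with the length trend removed. The longest coding transcripts have 885 bases for Il18, 1356 for Il1b and 2596 for Il18bp. The PM10 value of Il18 depends on how length is treated, so its PM10 ratios are uncertain.

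**Figure D3:**
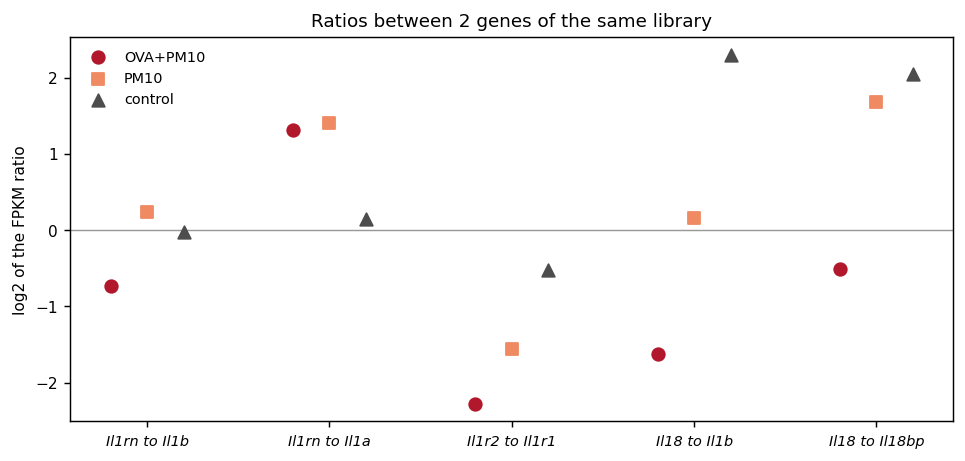
Log2 of the FPKM ratio between 2 genes of the same library (y axis) for 5 gene pairs in the OVA+PM10 (circles), PM10 (squares) and control (triangles) libraries. As deposited, Il18 to Il1b runs over -1.63, 0.16 and 2.30 in that order, and Il1r2 to Il1r1 over -2.28, -1.56 and -0.52.

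Relatives of the 10 genes differed mainly in the control library. The interleukin-36 genes, which the files list under older symbols and which encode epithelial cytokines of the same family, lie on chromosome 2 between 24153161 and 24283426 (mm10), just before Il1rn (24336853 to 24351494). Il1f6 (interleukin-36α) and Il1f8 (interleukin-36β) were listed at 0 in the OVA+PM10 and PM10 libraries, against 20.423 and 12.703 FPKM in control lungs. Il1f9 (interleukin-36γ) had 1.350 FPKM in OVA+PM10 lungs, 3.542 FPKM in PM10 lungs and 17.454 FPKM in control lungs. Il1f5, the interleukin-36 receptor antagonist gene, was listed at 0 in both exposed libraries, against 2.877 FPKM in the control library. Of the 5 other ligand genes with at least 1 FPKM in any library, these 4 were at least 2-fold lower in each exposed library than in the control. The remaining one, the alarmin gene Il33, had 61.348, 42.258 and 33.585 FPKM in the OVA+PM10, PM10 and control libraries. Il1f6, Il1f8 and Il1f5 could be tested only through the control library, so they could not count as higher in the exposed libraries. Over all genes tested, 8.68% were lower for OVA+PM10 over control and 13.9% for PM10 over control.

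The control library also held RNA of markers of stratified squamous epithelium, a tissue that lines the upper airway entrance, oesophagus and skin and is known to express interleukin-36, Il1a, Il1rn, Il18 and Il1r2. The 12 markers summed to 4.419 FPKM in OVA+PM10 lungs, 2.090 FPKM in PM10 lungs and 4550 FPKM in control lungs, and all 11 markers that could be tested were at least 2-fold lower in each exposed library. Nearly all of them were under 1 FPKM in the exposed libraries and were tested only through the control library, so they could not count as higher. Over all genes tested, 8.68% were lower for OVA+PM10 over control and 13.9% for PM10 over control. The keratin gene Krt13 had 0.107 FPKM in OVA+PM10 lungs, a listed value of 0 in PM10 lungs and 2574 FPKM in control lungs, and Krt4 had 0.793, 0.212 and 1171 FPKM. Of the 12 markers, 3 were listed at 0 in the OVA+PM10 library and 7 in the PM10 library. Skeletal muscle markers behaved alike, summing to 21.547, 5.734 and 3105 FPKM. The part of such tissue in the control values of Il1r2, Il18, Il1a, Il1rn and the interleukin-36 genes was not tested, and with 1 control library tissue content and exposure cannot be told apart for them.

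**Figure D4:**
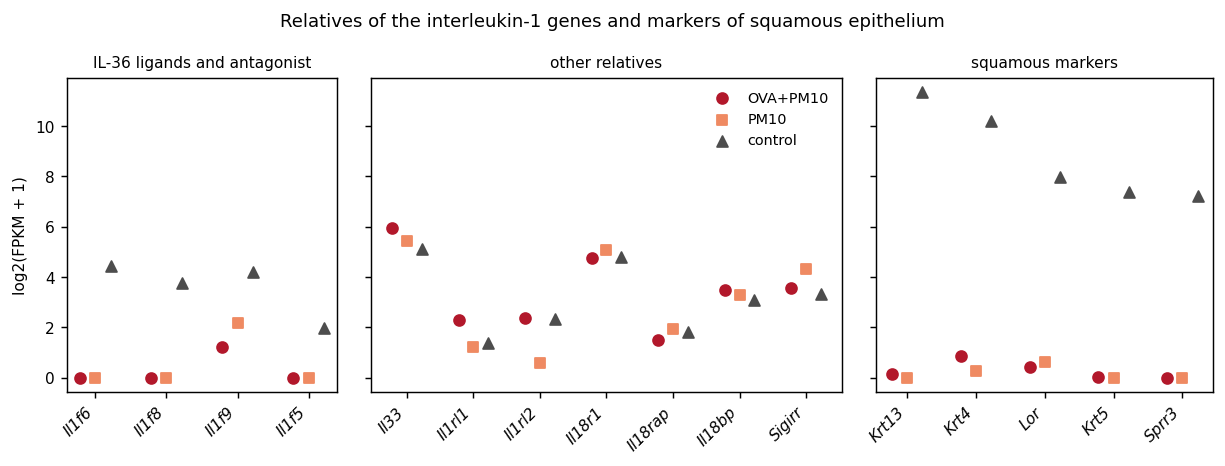
Log2(FPKM + 1) (y axis) of interleukin-36 genes, other relatives of the interleukin-1 genes and squamous epithelium markers in the OVA+PM10 (circles), PM10 (squares) and control (triangles) libraries. The interleukin-36 genes and the keratin, loricrin and Sprr3 genes were high in the control library, with Il1f6 at 20.423 FPKM and Krt13 at 2574 FPKM.

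Of the other receptor genes, Il1rl2, Il1rl1, Il18r1 and Il18rap lie beside Il1r2 and Il1r1 on chromosome 1, from Il1r2 (40074079 to 40125231) to Il18rap (40515362 to 40551705). Il1rl2, the interleukin-36 receptor gene, had 4.217 FPKM in OVA+PM10 lungs, 0.507 FPKM in PM10 lungs and 4.039 FPKM in control lungs, and so was low in the PM10 library alone (log2 ratio to control -1.74). Il1rl1, which encodes the interleukin-33 receptor ST2, had 3.828, 1.347 and 1.627 FPKM, higher in the OVA+PM10 library than in the PM10 library by a log2 ratio of 1.04. Il18r1, the ligand-binding chain for interleukin-18, had 26.223, 33.034 and 27.039 FPKM, and its partner Il18rap had 1.825, 2.771 and 2.535 FPKM. Sigirr, on chromosome 7, encodes a receptor that dampens the pathway and had 10.718, 18.949 and 9.131 FPKM. Of the 6 relatives in this list with at least 1 FPKM in any library, 1 (Il1rl2) was lower and none higher for PM10 over control, and none differed 2-fold between the OVA+PM10 library and the control. Over all genes tested, 13.6% were higher and 13.9% lower for PM10 over control, and 9.95% and 8.68% for OVA+PM10 over control.

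Downstream signalling genes were nearly level. Among 19 genes for adaptors, kinases and NF-κB components, none differed 2-fold between OVA+PM10 and control, while for PM10 over control 1 was higher and 1 lower. Over all genes tested, 9.95% were higher and 8.68% lower for OVA+PM10 over control, and 13.6% and 13.9% for PM10 over control. The median log2 ratios of the 19 genes were 0.10 and 0.15, or 0.17 and 0.29 without the length trend. The higher one was Nfkbia, which encodes the NF-κB inhibitor IκBα and is itself a target of NF-κB, at 23.321 FPKM in OVA+PM10 lungs, 81.496 FPKM in PM10 lungs and 14.100 FPKM in control lungs. The lower one was Nfkb1, which encodes the NF-κB subunit p50 and its precursor, at 27.434, 13.147 and 29.304 FPKM. The same 2 genes, in opposite directions, were those that differed 2-fold between OVA+PM10 and PM10 lungs. The adaptor gene Myd88 had 21.061, 20.060 and 15.825 FPKM, and the kinase gene Irak1 25.374, 27.511 and 20.530 FPKM.

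Inflammasome sensors other than Nlrp3 were low. Of 11 listed, 5 reached 1 FPKM in any library. None passed the 2-fold rule among the 5 that could be tested for PM10 over control, the 2 for OVA+PM10 over control and the 5 for OVA+PM10 over PM10. Most of these levels lie near or below the 1 FPKM that is added, so the rule could miss differences in FPKM such as that of Nlrp1a. The highest was Naip2, which senses bacterial proteins together with Nlrc4, at 5.889 FPKM in OVA+PM10 lungs, 3.177 FPKM in PM10 lungs and 3.188 FPKM in control lungs. Aim2, a sensor of cytosolic DNA, had 1.763, 1.983 and 0.944 FPKM, and Nlrp1a 0.255, 1.196 and 0.178 FPKM. Naip genes are near-identical copies of each other, and the handling of reads that match several places is unknown here, so their values are uncertain.

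Partners and effectors of the inflammasome were mixed. Of 12 that could be tested in the OVA+PM10 library against the control, 3 passed the 2-fold rule upward and none downward. Of 11 in the PM10 library, 1 passed upward and 2 downward. Among all genes tested, 9.95% were higher and 8.68% lower for OVA+PM10 over control, and 13.6% and 13.9% for PM10 over control. Prtn3, among the 3, reached 1 FPKM only in the OVA+PM10 library, so it could not count as lower and was not tested for PM10. P2rx4, an ATP-gated channel, had 48.164 FPKM in OVA+PM10 lungs, 47.389 FPKM in PM10 lungs and 15.209 FPKM in control lungs, high in both exposed libraries like Il1b. Casp4, which encodes the caspase that senses lipopolysaccharide in the cytosol, had 25.962, 16.236 and 10.164 FPKM, and so was highest in the OVA+PM10 library. Nek7, a kinase that NLRP3 needs for assembly, had 31.877, 14.022 and 42.850 FPKM and was lower in the PM10 library by a log2 ratio of -1.55. Gbp5 (3.397, 1.714 and 5.694 FPKM), a guanylate-binding protein of interferon responses, was also lower there, and Prtn3, a neutrophil protease gene, was higher in the OVA+PM10 library at 1.634, 0.893 and 0.286 FPKM. Gsdmd, which encodes the pore-forming protein gasdermin D through which interleukin-1β leaves cells, had 17.218, 20.715 and 14.657 FPKM and stayed within 2-fold.

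Genes that interleukin-1 is known to induce, among other stimuli, differed from control in larger numbers. For OVA+PM10 over control, 6 of the 11 that could be tested were higher by the 2-fold rule and none lower, with a median log2 ratio of 1.13, or 0.65 without the length trend. For PM10 over control, 8 of 13 were higher and 2 lower, and the median was 1.62, or 0.76 without the trend. This list was written with earlier results of these libraries known, so its direction is not independent evidence. Among all genes tested, 9.95% were higher and 8.68% lower for OVA+PM10 over control, and 13.6% and 13.9% for PM10 over control. Ccl20, Cxcl2, Cxcl3 and Il6 for PM10, and Ccl20, Cxcl3 and Cxcl5 for OVA+PM10, were counted as higher with under 1 FPKM in the control library. Each was tested only through the exposed library, so it could not count as lower. Ccl20 had 5.731 FPKM in OVA+PM10 lungs, 6.532 FPKM in PM10 lungs and 0.074 FPKM in control lungs, and was high in both exposed libraries, as Il1b was. Cxcl1, a chemokine for neutrophils, had 3.763, 6.978 and 1.176 FPKM, and its neighbour Cxcl2 had 0.609, 3.653 and 0.348 FPKM. Cxcl2, Cxcl3 and the growth factor gene Csf2 (2.010, 7.750 and 1.845 FPKM) were at least 2-fold lower in OVA+PM10 than in PM10 lungs, as Il1rn was, while Mmp3 and Ptgs2 (3.584, 1.052 and 2.250 FPKM) were higher. These were 3 lower and 2 higher of 14, with a median log2 ratio of -0.21, or 0.23 without the length trend. Mmp3 (6.354, 1.451 and 6.132 FPKM) and the adhesion molecule gene Icam1 (75.663, 60.060 and 122.669 FPKM) were the lower ones in the PM10 library, and Csf3 was listed at 0 in every library, as was the ligand gene Il1f10.

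**Figure D5:**
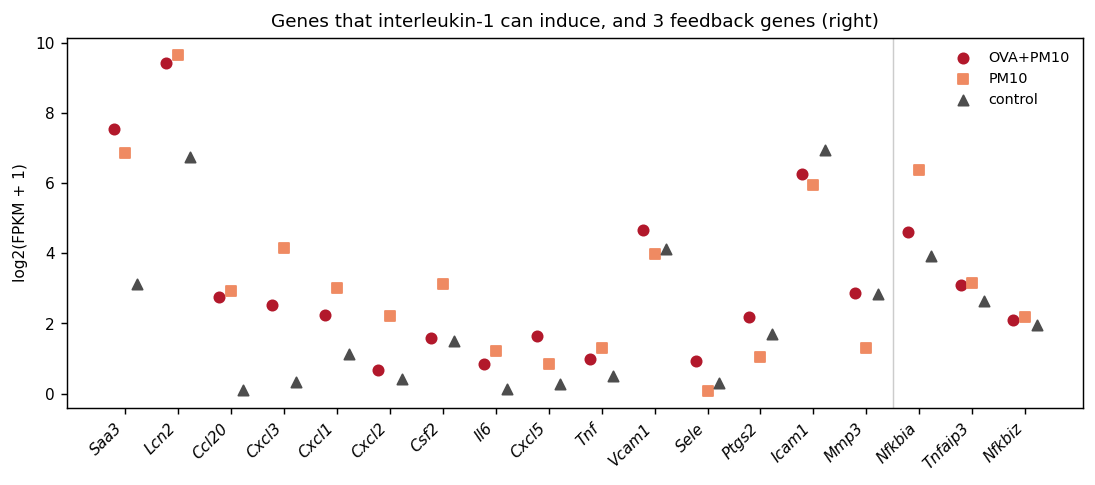
Log2(FPKM + 1) (y axis) of genes that interleukin-1 can induce, and of the NF-κB feedback genes Nfkbia, Tnfaip3 and Nfkbiz, in the OVA+PM10 (circles), PM10 (squares) and control (triangles) libraries. Saa3, Lcn2, Ccl20, Cxcl3 and Cxcl1 were higher in both exposed libraries, and Nfkbia stood out in the PM10 library at 81.496 FPKM.

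Myeloid markers also differed between the libraries, and not all in the same order. Over all genes tested, 9.95% were higher and 8.68% lower by the 2-fold rule for OVA+PM10 over control. These shares were 13.6% and 13.9% for PM10 over control, and 11.8% and 9.0% for OVA+PM10 over PM10. The 10 measured neutrophil markers summed to 3954 FPKM in OVA+PM10 lungs, 982 FPKM in PM10 lungs and 1068 FPKM in control lungs, with 7 of 10 at least 2-fold higher for OVA+PM10 over control and 7 for OVA+PM10 over PM10, beside 1 higher and 1 lower for PM10 over control. The neutrophil chemokine receptor gene Cxcr2 had 3.081, 4.312 and 2.703 FPKM. The 12 markers of monocytes and recruited macrophages summed to 1006, 618 and 312 FPKM, with 7 higher and none lower for OVA+PM10 over control and 3 higher and 1 lower for PM10 over control. Among 8 dendritic cell markers 2 were higher and none lower for OVA+PM10 over control, and 2 higher and 1 lower for PM10 over control. Itgax was higher in both at 45.778, 31.811 and 11.539 FPKM. Others went the other way, with Zbtb46 at 5.030, 1.970 and 8.362 FPKM and Clec9a at 4.236, 11.489 and 9.299 FPKM. Lung markers were high throughout, with 7 alveolar type 2 genes summing to 27719, 60148 and 25682 FPKM and 6 airway genes to 68602, 55034 and 45789 FPKM, and the 8 fibroblast genes summed to 1351, 1446 and 1606 FPKM. The part of any of these cells in the levels of Il1b and Il1rn was not tested.

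The 5 genes with values most like those of Il1b over the 3 libraries were not cytokine genes. Likeness was the distance between the pairs of log2 ratios to control among 9986 named genes with at least 5 FPKM in any library. The 5 nearest to Il1b were Rpl28, Dpcd, Fkbp2, Tyrobp and Tmem258, at distances of 0.09 to 0.14, and 24 genes lay within 0.25. Of these Tyrobp, which encodes a signalling adaptor of myeloid receptors, had 397, 454 and 119 FPKM in the OVA+PM10, PM10 and control libraries. The longest coding transcripts have 1106 bases for Rpl28, 1526 for Fkbp2, 597 for Tyrobp and 606 for Tmem258. No length was matched for Dpcd. Rpl28, Tyrobp and Tmem258 fall among the shortest transcripts (121 to 1180 bases), which had a median log2 ratio of 1.16 for PM10 over control. Likeness was computed with the length trend left in, and the part of length in it was not tested. The 5 nearest to Il1rn were Rpl21, Use1, Cox7a2, Cox7c and Hint1, at distances of 0.04 to 0.09, with 63 genes within 0.25. They include a ribosomal protein gene, Rpl21, and the respiratory chain genes Cox7a2 and Cox7c, with longest coding transcripts of 1856, 659 and 709 bases. The likeness rests on 3 libraries, and both ratios share the control.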

How the data were processed

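RNA of 3 lung libraries was measured, 1 per group, with the groups taken from the labels. The deposited values are FPKM per gene, a unit read from the values because no header names it. TopHat and the build mm10 were used per the submitters' processing notes; the counter, the annotation, strand use and pooling were not given in the sources used here. From the lowest values of genes with 1 transcript, depth was about 15.6, 13.4 and 21.0 M reads (1 M is 1e6) in the OVA+PM10, PM10 and control libraries. Only 41.9% to 51.6% of those low values fell within 0.1 of a whole read, so depth and read numbers are approximate and carry no counting intervals. Log2 ratios of FPKM + 1 were computed over all genes (Python 3.11.15, pandas 2.3.3), without further scaling, and the code was checked on simulated data. No tests were run.

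Transcript lengths and positions came from GENCODE M21 (GRCm38), matched by symbol for 22148 genes (95.5%). The length of a gene was its longest coding transcript, and the trend was a running median over 501 genes. The interleukin-36 symbols were matched through RefSeq synonyms. Of 11 neutrophil markers, 10 were matched. Named genes were all 10 members, up to 6 per pathway list with the largest ratios, up to 3 per marker list, and the 5 nearest in pattern to Il1b and Il1rn. The marker genes named, Gsdmd, Myd88, Irak1, Csf2, Csf3, Icam1, Mmp3, Ptgs2 and the ratios of Il18 to other genes were picked with their values in view, as were the genes that only the plots show. The members and lists were chosen with earlier results of these data known.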

Additional observations from a re-analysis of the deposited data

How the results depend on the processing

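With no replicates, no library could be left out, and no paired analysis was possible because each group has 1 library. The counts of the 10 genes are small, so single genes move them. For PM10 over control, 2 higher and 1 lower as deposited, the count of lower genes was 0 with 5 FPKM added, 0 with a filter at 5 FPKM and 2 with the length trend removed. At 4-fold the counts were 1 higher and 0 lower, and at 1.5-fold 4 and 2. For OVA+PM10 over control, 1 higher and 2 lower, there were 2 higher with 0.25 FPKM added, 1 lower with 5 FPKM added or a filter at 5 FPKM, 0 and 0 at 4-fold, and 2 and 4 at 1.5-fold. For OVA+PM10 over PM10, 0 higher and 2 lower, there was 1 lower with 5 FPKM added or with the median transcript length, an alternative chosen after seeing the data, and 0 at 4-fold. The median of the genes for OVA+PM10 over control was 0.14 with the filter at 5 FPKM and 0.02 with the median transcript length. Scaling to an equal sum of FPKM moved the median of all genes to -1.03, -0.57 and 0.46 in the 3 comparisons, in the order above. On that scale the 10 genes had 0 higher and 4 lower for PM10 over control (median -0.86), 1 and 4 for OVA+PM10 over control (median -0.61), and 1 and 1 for OVA+PM10 over PM10 (median 0.28), and Il1b and Il1rn had log2 ratios of 0.71 and 0.97 for PM10 over control. Counts over all genes moved as well. For PM10 over control they were 1869 higher and 1907 lower as deposited, 249 and 7057 at an equal sum, 1267 and 749 with 5 FPKM added, 891 and 1456 without the length trend, and 303 and 525 at 4-fold. At 1.5-fold they were 3606 and 3490 of the 13693 genes tested, and 1706 and 1324 with the filter at 5 FPKM. OVA+PM10 over control gave 1381 and 1204 as deposited, 615 and 3387 at an equal sum and 694 and 524 with 5 FPKM added. It gave 2853 and 2451 of the 13877 genes tested at 1.5-fold, 207 and 276 at 4-fold, and 1094 and 912 with the filter at 5 FPKM. OVA+PM10 over PM10 gave 1604 and 1220 as deposited, 3207 and 321 at an equal sum, 476 and 668 with 5 FPKM added and 290 and 111 at 4-fold. The log2 ratio of Il1r2 to Il1r1 with the length trend removed was -2.16 in the PM10 library and 0.10 in the control library. In the comparisons where a gene of the 10 passed the 2-fold rule as deposited, its ratio kept its direction under each of these settings; smaller ratios did not all do so, such as Il1b for OVA+PM10 over PM10, at -0.20 as deposited, 0.20 without the length trend and 0.37 at an equal sum. The causes were not tested beyond the construction of each alternative. Low levels, chiefly Nlrp3 and Il1r2, limit what this depth can show.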
